A study of Homo sapiens with 9 samples.

Results

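The 9 genes described here are snoRNA host genes, long noncoding RNA genes whose introns carry small nucleolar RNAs: SNHG1, GAS5, SNHG5, SNHG6, SNHG7, SNHG8, SNHG12, SNHG15 and SNHG16. They were chosen by name, and a peak was counted for a gene when it overlapped the gene's hg19 span widened by 2 kb on each side. Over the 6 peak lists, 36 of 27469 peaks met this rule. The lists come from chromatin immunoprecipitation and sequencing (ChIP-seq) of DDX21 and of CDK9 in A375 cells, a human melanoma line. The 3 treatments, each of 24 h, were 25 µM A771726 with added nucleotides, 25 µM A771726 alone, and DMSO as the vehicle, and the sources used here do not give the kind or dose of the nucleotides. A771726, the compound into which the drug leflunomide is turned in the body, blocks dihydroorotate dehydrogenase, an enzyme of pyrimidine synthesis. Each antibody and treatment had 1 library from this 1 cell line, so no difference could be set against a replicate error and no p-value was computed.

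Host genes of this kind are transcribed by RNA polymerase II and spliced, and the snoRNAs are trimmed out of the removed introns. Box C/D snoRNAs (SNORD genes) guide 2′-O-methylation of ribosomal RNA and box H/ACA snoRNAs (SNORA genes) guide its pseudouridylation. Many host genes start with a run of pyrimidines, a 5′ terminal oligopyrimidine sequence, as ribosomal protein genes do. DDX21 is a DEAD-box RNA helicase of the nucleolus that is known to bind snoRNAs and to occupy promoters of ribosomal protein and snoRNA host genes in human cells. The kinase CDK9, with a cyclin, forms P-TEFb, which releases paused RNA polymerase II into elongation.

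In the RefSeq gene table (GRCh38.p14) the 9 genes hold 34 snoRNA genes in all. GAS5 holds 11, SNHG1 holds 9, SNHG12 holds 4, SNHG16 holds 3, SNHG5 and SNHG7 hold 2 each, and SNHG6, SNHG8 and SNHG15 hold 1 each.

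Promoter sequences from RefSeq (GRCh38.p14) were found for 7 of the 9 genes, and none was found for SNHG6 and SNHG15. They are printed for the 3 of these genes with the highest DDX21 signal in DMSO (SNHG16, SNHG12 and SNHG7) and for the 2 that had no DDX21 peak with A771726 (SNHG8 and SNHG5), since the DDX21 peaks described here lie over the start of these genes. The last 2 were chosen after their values were seen. Each runs 5′ to 3′ on the gene's strand, with 250 bases before the RefSeq start and 50 after, so that the transcript begins at base 251. Capitals mark matches, on either strand, to the motifs searched. The sequences lie at chr17:76557514-76557813 on the plus strand, chr1:28581824-28582123 on the minus strand, chr9:136728135-136728434 on the minus strand, chr4:118278512-118278811 on the plus strand and chr6:85678684-85678983 on the minus strand, in the order printed.
SNHG16: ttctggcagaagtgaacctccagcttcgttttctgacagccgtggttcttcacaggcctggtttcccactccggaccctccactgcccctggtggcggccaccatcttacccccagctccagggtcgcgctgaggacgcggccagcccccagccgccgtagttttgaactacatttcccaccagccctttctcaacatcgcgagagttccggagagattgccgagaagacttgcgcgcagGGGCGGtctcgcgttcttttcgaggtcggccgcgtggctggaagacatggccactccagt
SNHG12: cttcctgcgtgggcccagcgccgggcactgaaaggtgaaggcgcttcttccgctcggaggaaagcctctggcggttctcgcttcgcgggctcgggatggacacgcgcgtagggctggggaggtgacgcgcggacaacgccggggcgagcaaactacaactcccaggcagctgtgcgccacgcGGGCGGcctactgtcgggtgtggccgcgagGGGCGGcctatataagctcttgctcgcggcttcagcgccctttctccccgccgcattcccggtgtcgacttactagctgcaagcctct
SNHG7: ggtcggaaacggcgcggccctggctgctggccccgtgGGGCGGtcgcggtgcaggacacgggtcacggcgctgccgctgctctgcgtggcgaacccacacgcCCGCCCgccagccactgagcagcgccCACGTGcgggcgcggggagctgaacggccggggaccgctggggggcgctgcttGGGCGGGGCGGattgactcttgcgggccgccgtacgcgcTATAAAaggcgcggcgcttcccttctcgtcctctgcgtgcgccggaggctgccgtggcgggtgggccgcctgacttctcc
SNHG8: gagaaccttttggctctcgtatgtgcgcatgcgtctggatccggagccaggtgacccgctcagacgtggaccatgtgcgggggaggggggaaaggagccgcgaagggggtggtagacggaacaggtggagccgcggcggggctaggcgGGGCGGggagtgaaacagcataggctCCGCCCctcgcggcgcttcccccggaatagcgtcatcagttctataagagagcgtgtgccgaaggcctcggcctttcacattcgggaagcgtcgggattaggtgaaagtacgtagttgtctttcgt
SNHG5: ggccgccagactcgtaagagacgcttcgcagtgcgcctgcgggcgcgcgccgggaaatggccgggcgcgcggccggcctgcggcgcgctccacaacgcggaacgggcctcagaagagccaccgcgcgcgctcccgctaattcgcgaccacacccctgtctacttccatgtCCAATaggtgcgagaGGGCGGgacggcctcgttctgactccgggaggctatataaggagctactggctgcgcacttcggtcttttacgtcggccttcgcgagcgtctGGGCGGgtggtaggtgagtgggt

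Of the 6 motifs searched, GGGCGG, the GC box, was the one found in most of these promoters, in 6 of 7, against 45.0% of 35116 promoters of the table. In SNHG7 it occurs 4 times, and 2 of these matches overlap. TATAAA, a form of the TATA box, was found in SNHG1 and SNHG7 and in 11.5% of all promoters. CACGTG, the E-box bound by MYC, was found in SNHG7 and in 7.26% of all promoters. CCAAT was found in GAS5 and SNHG5 and in 34.6% of all promoters. CCGGAAG, a site of ETS factors, and the palindromic site of NRF1 were found in none of the 7, against 10.3% and 1.24% of all promoters. A match describes these letters and says nothing of binding. The RefSeq transcript began with C in 5 of the 7 genes, against 14.7% of all promoters, and the exceptions were GAS5 and SNHG16. Pyrimidines made up 100% of the first 10 bases of SNHG12, 90.0% of those of SNHG1 and 80.0% of those of SNHG5 and SNHG16, 70.0% of those of SNHG7 and 50% of those of GAS5 and SNHG8. The median over the 7 genes was 80.0%, against 50% over all promoters. The GC content of the 300 bases ran from 37.7% in GAS5 to 75.3% in SNHG7, and the median over the 7 genes was 62.3%, against 58.7% over all promoters. The RefSeq model of GAS5 is 5145 bp long and its hg19 span 4088 bp, so the GAS5 promoter in the table is that of a longer model. For SNHG7 the lengths are 3591 and 6793 bp, and for SNHG12 4446 and 3315 bp. For SNHG5, SNHG8 and SNHG16 they differ by at most 2 bp, and for SNHG1 by 19 bp. The SNHG12 promoter printed starts its transcript 3336 bp from the 3′ end, near the length of the span and not of the RefSeq model.

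All 9 host genes carried a DDX21 peak in DMSO. With A771726 and nucleotides 8 of 9 did, and with A771726 alone 5 of 9. The list lengths followed the same order, with 7922, 4375 and 8321 DDX21 peaks under A771726 with nucleotides, A771726 and DMSO. Windows of 10 kb tiled over the chromosomes held a DDX21 peak in 2.42%, 1.37% and 2.54% of cases. The widened spans are 5.06 to 11.6 kb long and hold transcribed genes, while the windows also cover gene-poor sequence, so that these shares are a background for peak density and not for promoters. With only peaks of −log10 q of at least 5, which left 7379, 4134 and 7746 DDX21 peaks, the counts were still 8, 5 and 9 genes. With spans not widened the counts were 8, 4 and 8 genes. The gene then lost with A771726 and in DMSO was GAS5, whose only DDX21 peak in these lists lies outside its span. Taking 4375 peaks by rank from every list, which leaves the A771726 list as it is and can only lower the others, gave 4, 5 and 5 genes.

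CDK9 peaks were found at fewer of these genes. With A771726 and nucleotides 5 of 9 genes had one (GAS5, SNHG1, SNHG6, SNHG7 and SNHG12), with A771726 alone 0 of 9, which allows a share of up to 33.6% (exact 95% interval), and in DMSO 6 of 9 (GAS5, SNHG1, SNHG7, SNHG8, SNHG12 and SNHG16). The 9 genes are a named set in 1 library and not independent draws, so that interval is only nominal. The share of 10 kb windows with a CDK9 peak was 0.770%, 0.0537% and 0.867%. SNHG5 and SNHG15 had no CDK9 peak in any list. The CDK9 list with A771726 held 290 peaks, against 3099 with A771726 and nucleotides and 3462 in DMSO, and its shortest peak was 50 bp, against 129 and 128 bp. The scaled height of a peak is its pileup over the lowest background of the list. The lowest in the A771726 list was 15.4, against 6.43 with A771726 and nucleotides and 7.69 in DMSO. The lowest pileup there was 8 fragments, against 8 and 9, and the lowest background 0.521, against 1.24 and 1.17. The higher floor thus goes with a shorter peak length and a lower background, and whether the threshold was stricter was not tested. Taking 290 peaks by rank from every CDK9 list, which leaves the A771726 list as it is and can only lower the others, 0 genes with A771726 and nucleotides, 0 with A771726 and 1 in DMSO (SNHG7) had a peak.

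The hg19 spans are chr17:74553848-74561430 for SNHG16, chr1:28905052-28908366 for SNHG12, chr9:139615844-139622636 for SNHG7, chr1:173833038-173837125 for GAS5 and chr11:62619460-62623386 for SNHG1. They are chr8:67833919-67838633 for SNHG6, chr7:45022622-45026560 for SNHG15, chr4:119199917-119200978 for SNHG8 and chr6:86386726-86388451 for SNHG5. The DDX21 peaks sat at the 5′ ends of the host genes. The strand was taken from the RefSeq promoter table for 7 genes. All 7 DDX21 peaks of these genes with A771726 and nucleotides, all 5 with A771726 and all 7 in DMSO had their summit within 500 bp of the 5′ end of the span. The median distance was 56, 60 and 63 bp. Summits lay upstream of the 5′ end in 7 of 7, 5 of 5 and 6 of 7 cases. For SNHG16 the summit was 60, 60 and 63 bp upstream with A771726 and nucleotides, with A771726 and in DMSO. For SNHG12 it was 104, 99 and 102 bp upstream, for SNHG7 27, 37 and 39 bp, and for SNHG1 42, 48 and 22 bp. At these 4 genes the summit thus stayed upstream of the 5′ end under every treatment.

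GAS5 and SNHG5 differed from this pattern. GAS5, the growth arrest-specific transcript, lies next to ZBTB37, a protein-coding gene that is annotated on the plus strand, while GAS5 is on the minus strand. The strongest DDX21 summit at GAS5 lay 380, 333 and 371 bp beyond its 5′ end, towards ZBTB37, with A771726 and nucleotides, with A771726 and in DMSO, and the peak itself began 207, 244 and 164 bp outside the span. Whether these peaks lie outside the longer RefSeq model of GAS5 was not determined. A weaker DDX21 peak with its summit 7 bp upstream of the GAS5 5′ end was in the list with A771726 and nucleotides and not in the others. SNHG1 likewise lies next to the plus-strand gene SLC3A2, which encodes the heavy chain of amino acid transporters, and SNHG1 is on the minus strand. Signal from either gene of such a pair cannot be told apart at a peak over both starts. In SNHG5, host of SNORD50A and SNORD50B, the DMSO summit lay 99 bp inside the gene.

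For SNHG6 and SNHG15 the tables at hand give no strand. Both genes are on the minus strand as general knowledge, so that the higher coordinate is their 5′ end. Taken so, the DDX21 summits of SNHG6, host of SNORD87, lay 841 and 834 bp inside the span with A771726 and nucleotides and in DMSO, and those of SNHG15, host of SNORA9, 276 and 278 bp inside. The spans of these 2 genes are 863 and 265 bp longer than their RefSeq models, and which end differs was not determined. No peak lay between the edge of the widening and 10106 bp from a span: the outermost peak counted was a CDK9 peak 590 bp from SNHG1, and the nearest not counted was a CDK9 DMSO peak 10106 bp from SNHG1.

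**Figure D1:**
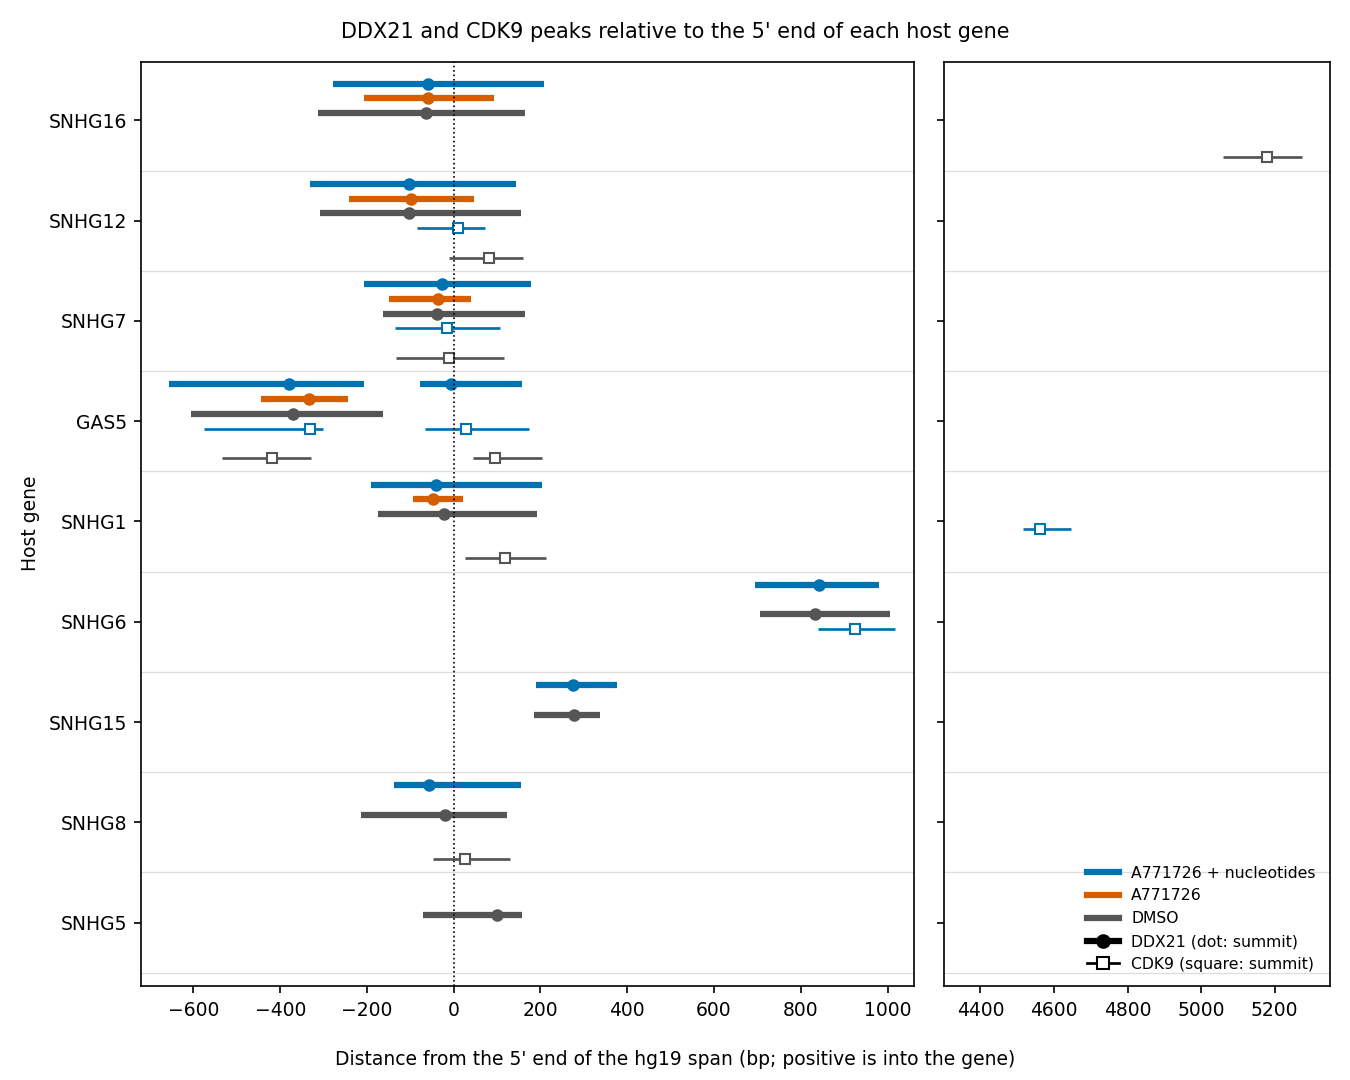
Peaks of DDX21 (thick lines, dots at summits) and CDK9 (thin lines, squares at summits) at each host gene, by distance in bp from the 5′ end of the hg19 span, positive into the gene. The x axis is broken, and the higher-coordinate end is used for SNHG6 and SNHG15. DDX21 summits lie within 150 bp of the 5′ end except at GAS5, SNHG6 and SNHG15, and the CDK9 peaks of SNHG16 in DMSO and of SNHG1 with A771726 and nucleotides lie far from it.

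The height of each peak was measured as the pileup, the number of sequenced fragments over the summit, which was worked out from the fold enrichment and −log10 p that the authors' peak caller gave. Each pileup carries an exact 95% Poisson interval, which covers counting error only. SNHG16, host of the SNORD1 family, had the strongest DDX21 peak of the group in every list. Its DDX21 pileup was 224 fragments (196 to 255) with A771726 and nucleotides, 128 (107 to 152) with A771726 and 235 (206 to 267) in DMSO. In DMSO the peak lay at chr17:74553536-74554013 and ranked 590 of 8321 by −log10 q. SNHG12, which hosts both box C/D and box H/ACA snoRNAs, had 216 (188 to 247), 97 (78.7 to 118) and 230 (201 to 262) fragments in the same order, with its DMSO peak at chr1:28908211-28908674. At both genes the library with A771726 alone was the low one, and its interval did not overlap those of the others. In DMSO the upper bounds of both, 267 and 262, exceed the highest pileup of that list, 256 fragments. Near that limit pileups cannot vary as Poisson counts do. The intervals of these 2 genes, and those of their height ratios, are therefore only nominal.

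A middle group followed. SNHG7, host of SNORA17A and SNORA17B, had DDX21 pileups of 111 fragments (91.3 to 134) with A771726 and nucleotides, 35 (24.4 to 48.7) with A771726 and 121 (100.4 to 145) in DMSO, where the peak lay at chr9:139622472-139622798. At GAS5 the strongest DDX21 peak, chr1:173837289-173837730 in DMSO, had 89 (71.5 to 110), 37 (26.1 to 51.0) and 108 (88.6 to 130) fragments. At SNHG1, chr11:62623195-62623561 in DMSO, the pileups were 64 (49.3 to 81.7), 27 (17.8 to 39.3) and 64 (49.3 to 81.7). In each of these 3 genes the library with A771726 alone was again the low one, with no overlap of its interval with the others. SNHG6 had 56 fragments (42.3 to 72.7) with A771726 and nucleotides and 61 (46.7 to 78.4) in DMSO, at chr8:67837628-67837926, and no peak with A771726.

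The weakest DDX21 peaks were those of SNHG15, SNHG8 and SNHG5. SNHG15 had 33 fragments (22.7 to 46.3) with A771726 and nucleotides and 35 (24.4 to 48.7) in DMSO, at chr7:45026222-45026376. SNHG8, host of SNORA24, had 28 (18.6 to 40.5) and 32 (21.9 to 45.2), with its DMSO peak at chr4:119199704-119200040. SNHG5 had 19 fragments (11.4 to 29.7) in DMSO, at chr6:86388294-86388522, and no peak with A771726 in either form. None of these 3 genes had a DDX21 peak with A771726 alone. Over the whole lists the median DDX21 pileup was 63, 46 and 62 fragments with A771726 and nucleotides, with A771726 and in DMSO, so SNHG1 and SNHG6 stood near the middle of the DMSO list.

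**Figure D2:**
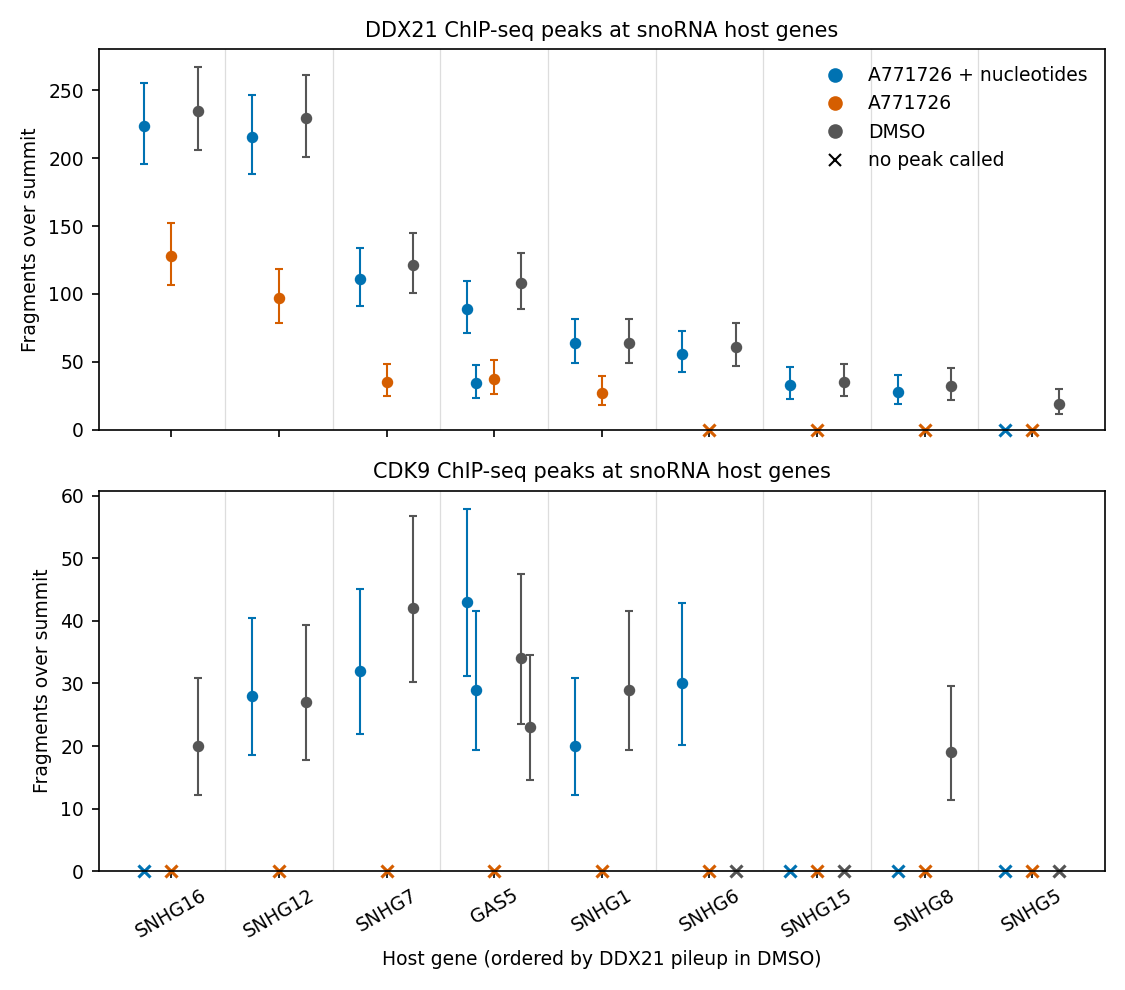
Fragments over the summit for DDX21 (upper plot) and CDK9 (lower plot) at each host gene, with A771726 and nucleotides, with A771726 and in DMSO. Points are single peaks, bars are exact 95% Poisson intervals, and crosses at 0 stand for no peak called, not for a measured 0. With A771726 alone the DDX21 points of SNHG16, SNHG12, SNHG7, GAS5 and SNHG1 lie at 128, 97, 35, 37 and 27 fragments, and all 9 CDK9 places hold a cross.

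The 9 DDX21 DMSO peaks of the host genes were kept with A771726 about as often as DDX21 peaks in general. Of these 9, 5 overlapped a peak with A771726, a share of 55.6% (exact Clopper-Pearson 95% interval 21.2 to 86.3), beside 51.1% of the whole DMSO list. The 4 without one were SNHG6, SNHG15, SNHG8 and SNHG5. The interval, like those of the other shares, treats peaks as independent draws. Peaks of the same library are not, so these intervals are only nominal. In the order of −log10 q in DMSO, every peak from GAS5 upwards was kept. So were 90.9% of all peaks in GAS5's decile, 99.4% in SNHG7's decile and 100% of those in the highest decile, which holds SNHG12 and SNHG16. SNHG5 was in the lowest decile, where 1.08% of peaks were kept, and SNHG8 and SNHG15 were in the third, where 6.25% were. SNHG1 and SNHG6 went against this order: SNHG1 was kept in the fifth decile, where 34.6% of peaks were, and SNHG6 was missing in the sixth, where 62.7% were. Their DMSO pileups were 64 and 61 fragments. Among all DDX21 DMSO peaks within 10% of these pileups, 53.4% and 46.8% were kept.

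With nucleotides most of the missing DDX21 peaks were present. Of the 4 host genes without a peak with A771726 alone, 3 (SNHG6, SNHG8 and SNHG15) had one with A771726 and nucleotides, beside 72.2% of all DDX21 DMSO peaks missing with A771726. Of all 9 host gene peaks of DMSO, 8 overlapped a peak with A771726 and nucleotides, or 88.9% (51.8 to 99.7), beside 86.3% of the whole list. The exception, SNHG5, was in the decile where 38.2% of peaks were found. From the side of the list with A771726 and nucleotides, 8 of 9 host gene peaks lay on a DMSO peak, beside 90.0% of that list, and 5 of 9 had a peak with A771726 alone, beside 53.5%. These shares are near those of the whole lists and say nothing particular of the host genes.

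**Figure D3:**
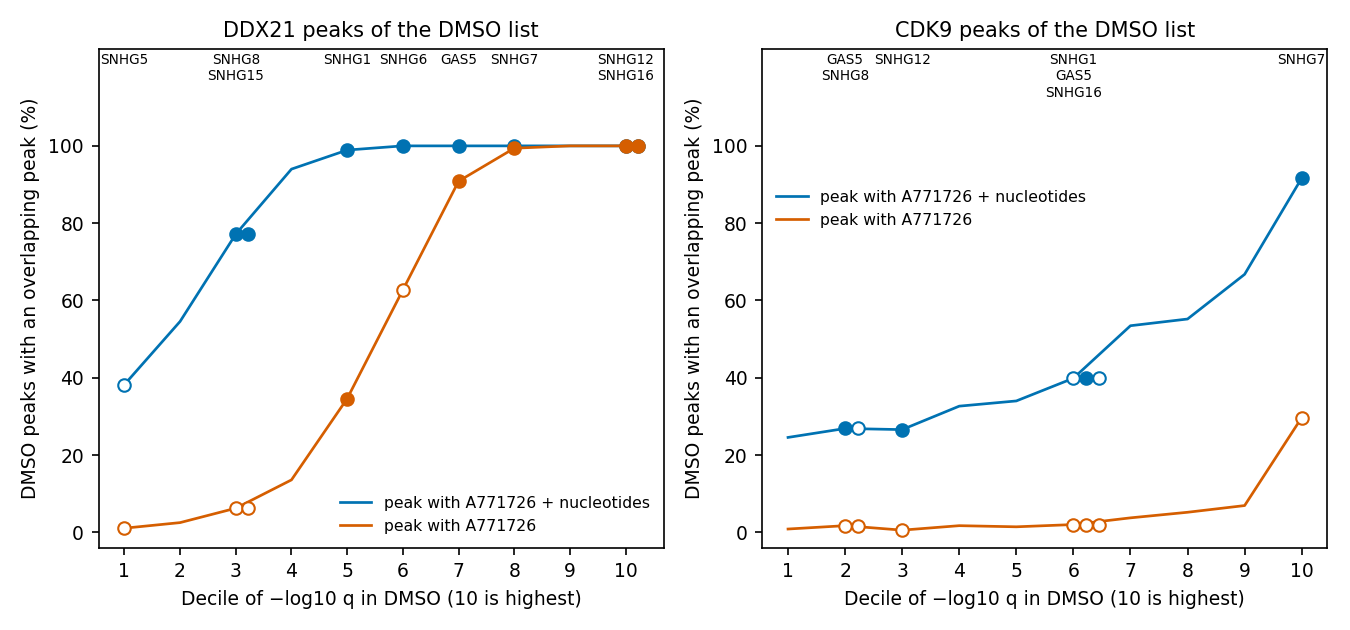
Share of DMSO peaks with an overlapping peak under the other treatments, in percent, by decile of −log10 q in DMSO, for DDX21 (left) and CDK9 (right). Lines are all peaks of the DMSO list, and circles place each host gene peak on its decile, filled where it was kept and open where it was not, with small shifts to the right for peaks of the same decile. SNHG6 is open and SNHG1 filled on the DDX21 line for A771726, at 62.7% and 34.6%.

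To compare DDX21 heights between libraries, each pileup was scaled by the lowest background in the same list, and the ratio of these heights carries an exact interval for the ratio of 2 counts. Relative to DMSO, A771726 gave a height ratio of 0.57 (0.45 to 0.71) at SNHG16, 0.44 (0.34 to 0.56) at SNHG12, 0.30 (0.20 to 0.44) at SNHG7, 0.36 (0.24 to 0.52) at GAS5 and 0.44 (0.27 to 0.70) at SNHG1. All 5 were lower by 1.5 fold or more, as were 91.3% of the 4253 DMSO peaks with an A771726 peak. The median over the 5 genes was 0.44, beside 0.42 over all shared peaks, with quartiles of 0.35 and 0.51. The 4068 DDX21 DMSO peaks missing with A771726, with SNHG6, SNHG15, SNHG8 and SNHG5 among them, have no ratio. Medians over shared peaks of A771726 and DMSO thus leave out any fall that took a peak under the caller's threshold. The highest pileup of each DDX21 list was 2 times its shortest peak, 262, 232 and 256 fragments with A771726 and nucleotides, with A771726 and in DMSO. SNHG16 and SNHG12 were close to that limit in DMSO, and shared peaks within 10% of their DMSO pileups had median ratios of 0.59 (quartiles 0.50 and 0.70) and 0.55 (0.48 and 0.64). Around SNHG7 the median was 0.37 (0.31 and 0.44), around GAS5 0.36 (0.31 and 0.43) and around SNHG1 0.38 (0.33 and 0.45). Of the DMSO peaks around SNHG1 only 53.4% were kept and so have a ratio. SNHG12 and SNHG7 lay below the lower quartile of their neighbours in height, and the intervals of both reached above it.

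Adding nucleotides to A771726 gave higher DDX21 peaks than A771726 alone at the same 5 genes. The height ratio, A771726 with nucleotides over A771726, was 1.85 (1.48 to 2.32) at SNHG16, 2.36 (1.85 to 3.03) at SNHG12, 3.36 (2.28 to 5.06) at SNHG7, 2.55 (1.72 to 3.84) at GAS5 and 2.51 (1.58 to 4.09) at SNHG1. All 5 were higher by 1.5 fold or more, as were 94.0% of the 4342 A771726 peaks shared by the lists, and the medians were 2.51 and 2.49. A771726 with nucleotides over DMSO ran from 0.91 (0.68 to 1.22) at GAS5 to 1.10 (0.77 to 1.59) at SNHG1 over the 8 genes with a peak in both. The interval of every one of the 8 included 1, and 0 of 8 differed by 1.5 fold or more, as did 5.22% of 7180 shared peaks. The medians were 1.03 and 1.04. SNHG16 and SNHG12 lay close to the highest pileup of both lists, 262 and 256 fragments, which limits how far their ratios could leave 1. Shared peaks within 10% of their DMSO pileups had median ratios of 1.10 (quartiles 1.07 and 1.13) and 1.09 (1.05 and 1.12). The height ratios of the host genes share libraries and are not independent of each other.

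The peak caller's own fold enrichment gave another picture at the strongest genes, because it is taken against the local background. At SNHG16 the fold enrichment was 19.0 with A771726 and nucleotides, 28.5 with A771726 and 26.5 in DMSO, with local backgrounds of 10.9, 3.52 and 7.92 fragments. At SNHG12 it was 19.3, 22.6 and 24.0, with local backgrounds of 10.3, 3.34 and 8.64. So at these 2 genes the local background with A771726 was under that of the other libraries, as the pileup was. Over the 5 genes the median ratio of fold enrichment was 0.56 for A771726 over DMSO, beside 0.54 over all shared peaks. The DDX21 peaks with A771726 were also narrower. At SNHG16 the peak was 489, 302 and 478 bp wide with A771726 and nucleotides, with A771726 and in DMSO, and at SNHG1 395, 116 and 367 bp. The shortest peaks of these lists were 131, 116 and 128 bp. The 116 bp at SNHG1 is thus the shortest length of its list and may be a floor, not a measured width. The median ratio of width, A771726 over DMSO, was 0.58 over the 5 genes and 0.64 over all shared peaks.

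**Figure D4:**
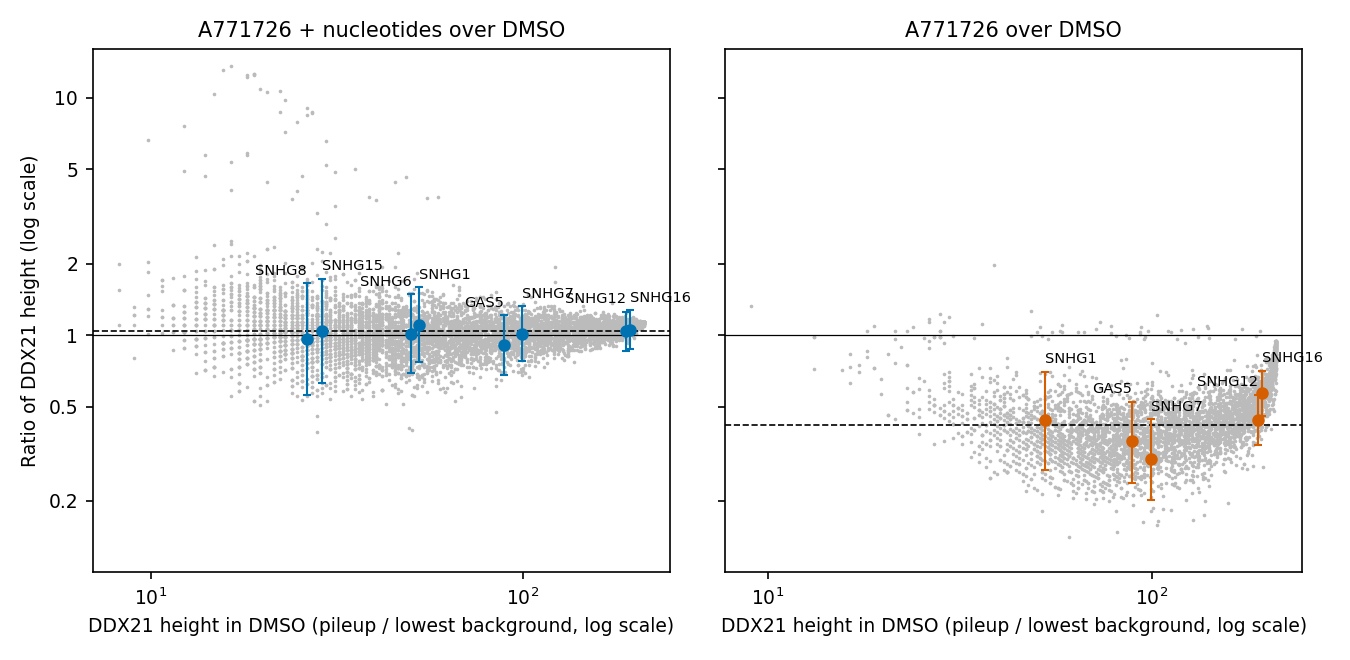
Ratio of DDX21 height to DMSO (log scale) for A771726 with nucleotides (left) and for A771726 (right), against the height in DMSO (log scale). Grey points are all shared peaks, the dashed line is their median, and coloured points are host genes with exact 95% intervals from the counts. The 8 host genes on the left lie between 0.91 and 1.10, and the 5 on the right between 0.30 and 0.57.

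CDK9 peaks at the host genes had 19 to 43 fragments over the summit and lay mostly at the same 5′ ends as the DDX21 peaks. GAS5 had 2 CDK9 peaks. The one at its 5′ end had 43 fragments (31.1 to 57.9) with A771726 and nucleotides and 34 (23.5 to 47.5) in DMSO, and the one towards ZBTB37 had 29 (19.4 to 41.6) and 23 (14.6 to 34.5). SNHG7 had 32 (21.9 to 45.2) and 42 (30.3 to 56.8), with a DMSO rank of 189 of 3462. SNHG12 had 28 (18.6 to 40.5) and 27 (17.8 to 39.3). All of these intervals overlapped between the 2 treatments. The height ratios, A771726 with nucleotides over DMSO, were 1.19 (0.74 to 1.92) and 1.19 (0.66 to 2.15) at the 2 GAS5 peaks, 0.72 (0.44 to 1.16) at SNHG7 and 0.98 (0.55 to 1.72) at SNHG12. None of the 4 passed 1.5 fold, as 8.50% of 1564 shared CDK9 peaks did.

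Other CDK9 peaks were in 1 list only. SNHG6 had one with A771726 and nucleotides, with 30 fragments (20.2 to 42.8), and SNHG8 one in DMSO, with 19 (11.4 to 29.7). SNHG1 had a CDK9 peak 118 bp inside its 5′ end in DMSO, with 29 fragments (19.4 to 41.6). With A771726 and nucleotides that place had none, and a peak of 20 fragments (12.2 to 30.9) lay beyond the 3′ end of SNHG1, 4561 bp from its 5′ end. In SNHG16 the CDK9 peak was in DMSO, with 20 fragments (12.2 to 30.9), and lay 5179 bp inside the gene, away from the DDX21 peak. Among peaks of the 7 genes with a strand, 4 of 5 with A771726 and nucleotides and 6 of 7 in DMSO were within 500 bp of the 5′ end, and those of SNHG1 and SNHG16 just named were the exceptions.

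None of the 7 CDK9 DMSO peaks of these genes overlapped a peak with A771726, which allows a share of up to 41.0% (exact 95% interval), beside 5.40% of the whole DMSO list. With that background, 0 of 7 is not a result about the host genes. For SNHG7, whose CDK9 peak was in the highest decile, 29.7% of the decile had an A771726 peak. With A771726 and nucleotides, 4 of 7 (57.1%, 18.4 to 90.1) had a peak, beside 45.2% of the list, and all 4 were at GAS5, SNHG7 and SNHG12. From the other side, 4 of the 6 peaks with A771726 and nucleotides lay on a DMSO peak, beside 50.6% of that list, and 0 of 6 had a peak with A771726 alone, beside 5.74%. The nearest CDK9 peak of the A771726 list lay 10.2 kb from SNHG1 and 66.7 kb from SNHG12, and 600.2 kb or more from the other 7 genes.

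DDX21 and CDK9 peaks overlapped at 4 host genes with A771726 and nucleotides (GAS5, SNHG6, SNHG7 and SNHG12), at 0 with A771726 and at 5 in DMSO (SNHG1, GAS5, SNHG7, SNHG8 and SNHG12). As a share of CDK9 peaks this was 5 of 6 with A771726 and nucleotides, or 83.3% (35.9 to 99.6), beside 13.6% of that list. In DMSO it was 5 of 7, or 71.4% (29.04 to 96.3), beside 17.8% of the DMSO list, and the exceptions were SNHG16 and the peak at the 5′ end of GAS5. Each CDK9 peak of GAS5 counts separately in these shares, and their intervals are only nominal. With A771726 there was no CDK9 peak of a host gene to count, and 15.5% of the CDK9 list lay on a DDX21 peak. As a share of DDX21 peaks it was 5 of 9 with A771726 and nucleotides, 0 of 5 with A771726 and 5 of 9 in DMSO, beside 5.30%, 0.960% and 7.38% of the lists. Each list also holds peaks far from any gene start, and peaks at other gene starts were not counted here, so these shares are not set against promoters. With only peaks of −log10 q of at least 5, overlap was left at 2 genes in DMSO.

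Where a CDK9 peak overlapped a DDX21 peak, the CDK9 summit mostly lay further into the host gene than the DDX21 summit. This held in 5 of 5 pairs with A771726 and nucleotides and in 4 of 5 in DMSO. With A771726 and nucleotides it was 113 bp further at SNHG12, 84 bp at SNHG6, 49 and 36 bp at GAS5 and 11 bp at SNHG7. These 5 pairs are from 4 genes. The direction at SNHG6 rests on its strand from general knowledge, and the GAS5 pair at 49 bp lies outside the span, on the ZBTB37 side. In DMSO the CDK9 summit was 183 bp further at SNHG12, 140 bp at SNHG1, 46 bp at SNHG8 and 29 bp at SNHG7. The exception was the DMSO peak on the ZBTB37 side of the GAS5 span, where the CDK9 summit was 47 bp further upstream. The median distance between summits, in either direction, was 49 bp with A771726 and nucleotides and 47 bp in DMSO, beside 38 and 40 bp over all overlapping pairs of these lists. The direction could not be set against other genes, since no hg19 annotation was at hand.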

How the data were processed

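DDX21 and CDK9 were mapped by ChIP-seq in A375 cells under 3 treatments. The series has 9 samples, grouped by their titles. Peak lists of 6 libraries were used, and the 3 inputs were not used here. Per the submitters' processing notes, Bowtie, MACS2 2.0 and hg19 were used, with no roles, parameters or control stated. Each list belongs to 1 library. The deposited lists give, per peak, position, summit, fold enrichment (a ratio to local background), −log10 p and −log10 q, all the authors' values. In each of the 27469 peaks the deposited score equals −log10 q times 10 without its decimals. Libraries were amplified with 18 PCR cycles, per the labels' protocols. The sources used here give no read totals. PCR reads without molecular identifiers are not independent molecules, so intervals cover counting error only. Intervals of shares treat genes or peaks of 1 library as independent draws, which they are not, and are only nominal.

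Pileups were solved from fold enrichment, taken as (pileup + 1)/(background + 1), and −log10 p, taken as a Poisson upper tail. A whole number met both within 0.001 for 100% of peaks in every list. The lowest background divided by the shortest peak gave tags relative to DMSO of 0.884 and 1.06 for DDX21 with A771726 and nucleotides and with A771726, and 1.05 and 1.14 for CDK9. Dividing a pileup by the lowest background scales for this. Peaks were shared when they overlapped by at least 1 bp. Deciles ranked each DMSO list by −log10 q, with 10 as the highest. The steps were tested on simulated data with Python 3.11.15, numpy 2.4.6, pandas 2.3.3 and scipy 1.17.1.

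All 9 genes of the list are named, with every peak of theirs. The genes, the motifs and the rules were chosen with earlier results of these data known. The comparisons within 10% of a pileup and the choice of the last 2 printed promoters came after the values were seen. Gene names, snoRNA genes and promoters are of GRCh38.p14 and peaks of hg19, and no coordinates were converted. Other snoRNA host genes were not analysed here.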

Additional observations from a re-analysis of the deposited data

How the results depend on the processing

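Over 28 values, 110 alternatives left the value within 1.5 times a count, within the 95% interval of a share or, for a median height ratio, within the range over the genes. In 16 it moved, and in 0 it reversed. Only a median height ratio beyond 1.5 fold could be scored as reversed, so the 0 says nothing of the other values. At single genes fold enrichment did change direction. A771726 with nucleotides over A771726 was 0.67 at SNHG16 and 0.85 at SNHG12, but 2.56, 1.56 and 1.76 at SNHG7, GAS5 and SNHG1. A771726 over DMSO was 1.08 at SNHG16, and 0.38 to 0.94 at the other genes with both peaks. With each list cut down to the length of the antibody's shortest one, DDX21 peaks numbered 4 with A771726 and nucleotides (4 genes) and 5 in DMSO (5 genes). CDK9 peaks then numbered 0 (0 genes) and 1 (1 gene), the share of CDK9 DMSO peaks found with nucleotides was 0%, and both proteins overlapped at 0 genes with A771726 and nucleotides and at 1 in DMSO. These lists hold 4375 and 290 peaks, so fewer peaks follow from the construction. With only peaks of −log10 q of at least 5, 4 CDK9 DMSO peaks were left, 3 of them within 500 bp of a 5′ end, and DDX21 and CDK9 overlapped at 2 genes in DMSO. With fold enrichment in place of height, the median ratio was 1.56 for A771726 with nucleotides over A771726, beside 1.76 over all shared peaks. For A771726 with nucleotides over DMSO it was 0.87, beside 0.94. Fold enrichment is taken against the local background, whose median ratios at these genes were 1.64 and 1.05. Over all shared peaks the background ratios were 1.38 and 0.99. Widening the spans by 5 kb took in no other peak, so that setting could move nothing. The CDK9 counts of 0 with A771726 could not move under a stricter setting either. The intervals of the shares were wide, 21.2 to 86.3% for DDX21 DMSO peaks with an A771726 peak. There 80% in the shortened lists, in place of 55.6%, still counted as unmoved.

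No paired analysis was possible because the labels give no replicate numbers and each group has 1 library. With 1 library per group, the spread between cultures is unknown. A missing peak shows only that no peak passed the caller's threshold, and with A771726 and nucleotides, with A771726 and in DMSO the lowest pileup called was 8, 10 and 8 fragments (DDX21) or 8, 8 and 9 (CDK9). As scaled heights these floors were 7.27, 8.58 and 6.58 (DDX21) and 6.43, 15.4 and 7.69 (CDK9), so the CDK9 floor was highest in the A771726 list. Tag numbers were inferred, not given. Peaks of hg19 were not set against an annotation of that build, so that neither the share of other promoters with a peak nor the place of the snoRNAs within the peaks was measured.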
